A study of Homo sapiens with 15 samples.

Results

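The 8 transcription factor genes described here mark the chambers of the forming heart and were chosen by name: NR2F1, NR2F2, HEY1, HEY2, HEYL, IRX4, IRX3 and IRX1. They are 8 of the 60605 genes in the table, each with 1 row, and all 8 were among the 21206 genes with an FPKM (counts scaled to exon length and library total) that reached 1 in any of the 15 libraries. NR2F1, NR2F2 and HEY1 were read as atrial and HEY2 and IRX4 as ventricular, and the other 3 were read as neither. In hg38, with gene limits from GENCODE release 44, NR2F1 lies on chromosome 5 from 93583222 to 93594611, NR2F2 on chromosome 15 from 96325938 to 96340263 and HEYL on chromosome 1 from 39623435 to 39639643. IRX4 lies on chromosome 5 from 1877413 to 1887236, IRX1 on the same chromosome from 3595832 to 3601403 and IRX3 on chromosome 16 from 54283304 to 54286787. RNA was taken from 1 course of cardiac differentiation of H1, an established human embryonic stem cell line of wild-type genotype. All cells received the WNT activator CHIR99021 on day 0 and insulin on day 1, and days 0, 1 and 2 gave 1 library each that every arm shares. From day 2 the culture was split into 3 arms, sampled once each on days 3, 5, 7 and 10. In NP-ctrl the cells were left undisturbed with no further inducer. In NP-IWP2 they were left undisturbed and given IWP2, which blocks the secretion of WNT proteins, from day 2 to day 4. Passaged cells were detached with EDTA on day 2 and replated without IWP2, by the study's description in the presence of the ROCK inhibitor Y27632. The study states the split ratio of the passaged cells of this course, and its medium recipe for them lists no insulin. Whether insulin was added on the day of replating is not stated for these libraries. Replating, cell density and Y27632 cannot be told apart in this design. No arm had a second culture, so intervals below cover counting error only, and a p-value below measures the spread of an arm difference over 4 days of 1 series of cultures.

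The heart tube forms atria at its inflow end and ventricles further along, and different transcription factors hold these fates. NR2F1 and NR2F2 (COUP-TFI and COUP-TFII) are nuclear receptors that are induced by retinoic acid and maintain atrial identity. The 3 HEY genes encode basic helix-loop-helix repressors that are switched on by Notch, with Hey1 confined largely to atrial and Hey2 to ventricular compact muscle in the embryo. The Iroquois genes encode homeodomain factors that lie in clusters. IRX4, the ventricular member that restrains atrial genes, shares a cluster on chromosome 5 with IRX2 and IRX1, and IRX3, which acts in the ventricular conduction system, shares one on chromosome 16 with IRX5 and IRX6. NR2F and IRX genes are also used by many cells outside the heart muscle, among them mesenchyme, endoderm, endothelium and neural tissue.

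Since the HEY genes are Notch targets, their start sites were searched for GTGGGAA, the motif of RBPJ, the DNA-binding partner of cleaved Notch. RefSeq promoters (250 bases before and 50 after a start, build GRCh38.p14) were matched for 6 of the 8 genes, all but HEY1 and IRX3. These 6 genes have 10 such windows. On both strands the motif was found in 2 of the 10, those of HEY2 and HEYL, while 6.2% of all 35116 promoters of this length held at least 1 and 0.25% held at least 2. HEY2 held 2, with the first base 213 and 4 bases before the start, and HEYL held 1, which began 178 bases before the start. These sequences are shown because the HEY genes took separate courses below. Capitals mark GTGGGAA or its reverse complement TTCCCAC, and each run ends 10 bases after the start.
HEY2, chr6:125749382-125749641, plus strand: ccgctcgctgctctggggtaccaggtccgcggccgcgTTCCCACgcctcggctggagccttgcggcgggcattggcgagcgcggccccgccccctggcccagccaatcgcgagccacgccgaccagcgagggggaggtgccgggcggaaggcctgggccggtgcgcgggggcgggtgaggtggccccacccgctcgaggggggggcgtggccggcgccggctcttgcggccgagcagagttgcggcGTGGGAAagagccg
HEYL, chr1:39639634-39639893, minus strand: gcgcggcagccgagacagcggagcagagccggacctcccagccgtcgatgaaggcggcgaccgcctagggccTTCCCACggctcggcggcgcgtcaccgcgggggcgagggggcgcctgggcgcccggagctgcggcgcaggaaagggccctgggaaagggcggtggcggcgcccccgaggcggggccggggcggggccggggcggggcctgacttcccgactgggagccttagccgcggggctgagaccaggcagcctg
The RefSeq start of HEY2 used here lies inside the gene as GENCODE release 44 draws it, which runs from 125747664 to 125761269 on chromosome 6. The E-box CACGTG was found in the IRX1 promoter and, at 2 places, in 1 of the 2 NR2F2 promoters, against 7.3% of all promoters with at least 1. The nuclear receptor motif AGGTCA was in none of the member promoters and in 13.8% of all. A match describes the letters of these windows and is no evidence of binding.

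Total counts ranged from 13254723 to 20250115 per library, and 3 counts of NR2F1, the floor for a bound, equalled an FPKM of 0.0344 on day 2. The share of mitochondrial counts ranged from 1.53% in passaged cells on day 3 to 10.3% in passaged cells on day 10. The day 0 library matched its label, with all 8 pluripotency markers above 3 counts and a summed FPKM of 2151, against 3.22 for 10 cardiomyocyte markers. By day 10 the cardiomyocyte markers summed to 552, 1685 and 4108 (NP-ctrl, NP-IWP2, passaged). All 8 fibroblast markers were above 3 counts in all 3 arms on days 5, 7 and 10, and on day 10 the sums were 4526, 1267 and 124 in that order. The 9 hepatic and endoderm markers summed to 4017, 1186 and 20.8 in the same order, with APOA2 and FOXA2 at 0 in passaged cells. These were mixed cultures, so fewer cells that express a gene and less RNA of it per cell cannot be told apart.

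Before the arms divided, 6 of the 8 genes were already above 3 counts in undifferentiated cells. On day 0 the FPKM was 21.59 for IRX1, 19.12 for IRX4 and 7.23 for HEY2, and it was 0.67 for HEY1, 0.35 for HEYL and 0.08 (4 counts) for IRX3. NR2F1 and NR2F2 had 0 counts. A gene was counted as different between single libraries where log2(FPKM + 1) differed by at least 1, with no test. The added 1 shrinks differences between low values. From day 0 to day 1 none of the 8 passed that limit, against 6.74% of all genes. From day 1 to day 2, IRX3 and IRX1 passed it upwards and none downwards, against 4.34% and 2.66% of all genes. IRX3 went from 8 to 4545 counts, an FPKM of 0.15 against 76.47 and a ratio of 517 with a 95% interval of 262 to 1199. The difference was 6.07 on log2(FPKM + 1). IRX1 went from 11.63 to 26.21. Its cluster neighbour IRX2 was flat at 21.25 and 22.93, and IRX5, the neighbour of IRX3, went from 0.06 to 17.93. NR2F1 went from 0 to 18 counts (FPKM 0.21, at least 5.46-fold above day 1 at the floor of 3 counts) and NR2F2 from 1 to 53 counts (0.40).

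**Figure D1:**
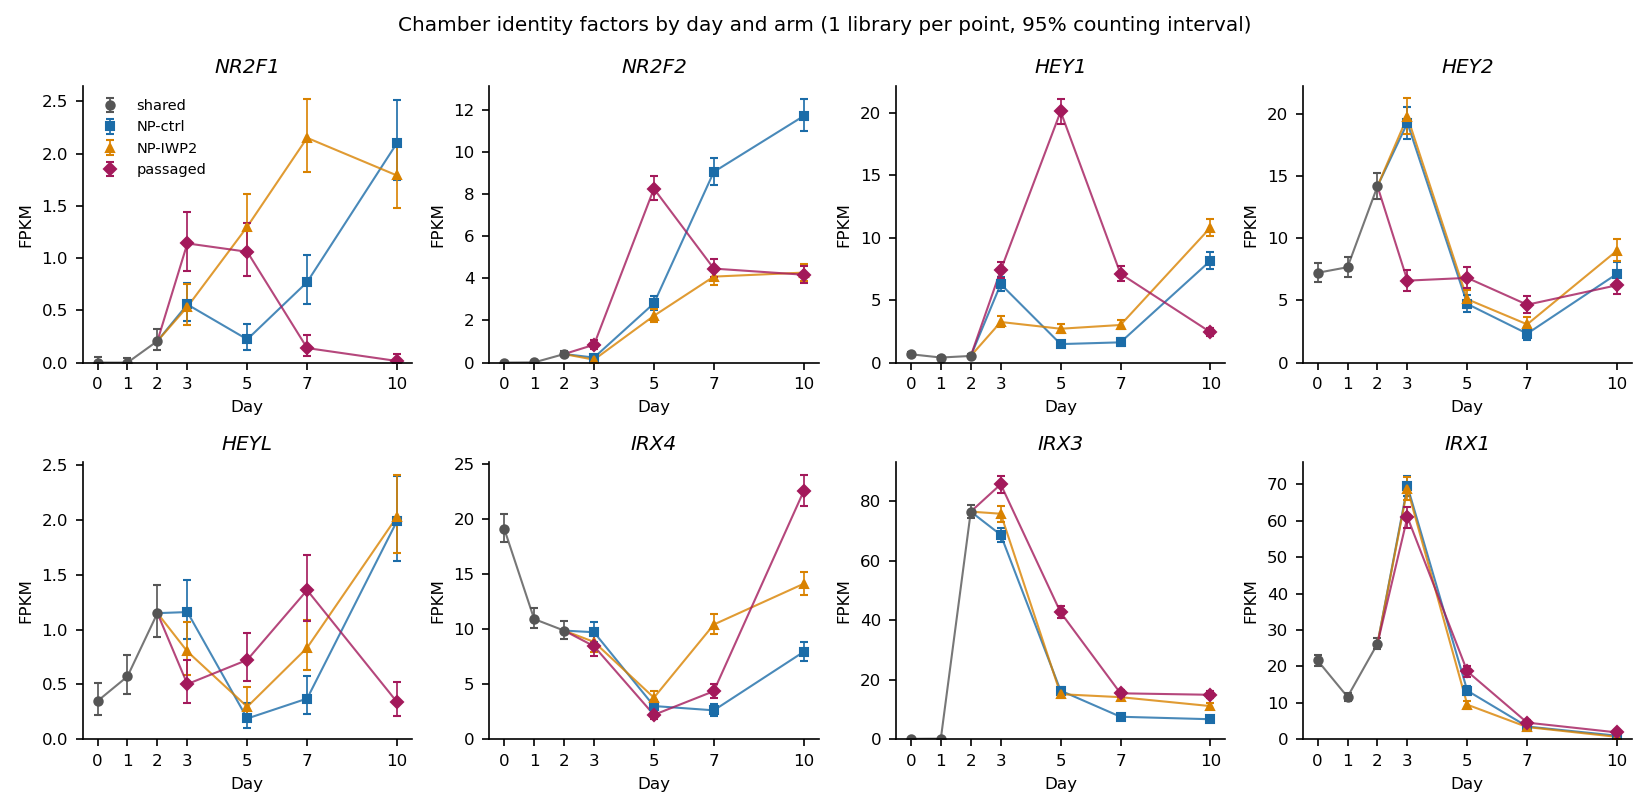
FPKM (vertical, from 0) against day (horizontal) for each of the 8 genes, with 1 library per point and 95% counting intervals as bars. Grey points are the shared days, blue squares NP-ctrl, orange triangles NP-IWP2 and magenta diamonds passaged cells. HEY1 peaks at 20.08 in passaged cells on day 5, NR2F2 reaches 11.72 in NP-ctrl on day 10, IRX4 ends highest in passaged cells at 22.54, and IRX3 and IRX1 peak near days 2 and 3 in every arm.

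Among the factors read as atrial, NR2F2 took a different course in each arm. In NP-ctrl its FPKM was 0.24, 2.81, 9.05 and 11.72 on days 3, 5, 7 and 10. The NP-IWP2 values were 0.14, 2.22, 4.08 and 4.27. Those of passaged cells were 0.85, 8.25, 4.46 and 4.17. NR2F2 was thus highest in passaged cells on days 3 and 5 and in NP-ctrl on days 7 and 10. On day 5 passaged cells stood above NP-ctrl by a ratio of 2.94 (95% interval 2.56 to 3.37) and above NP-IWP2 by 3.72 (3.19 to 4.36). On day 10 they stood at 0.356 of NP-ctrl (0.317 to 0.399), and NP-IWP2 at 0.364 (0.325 to 0.408). Passaged and NP-IWP2 cells differed by less than counting error on day 10, with a ratio of 0.977 (0.852 to 1.12). The summed fibroblast markers were likewise highest in NP-ctrl on day 10, at 4526 against 1267 and 124, and on day 5 the sum was 383 in the passaged arm against 1865 and 1108. Their part in the NR2F2 level was not tested.

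NR2F1 was low in every library, with a highest FPKM of 2.15 in NP-IWP2 on day 7. On days 3, 5, 7 and 10 NP-ctrl gave 0.56, 0.22, 0.77 and 2.10 and NP-IWP2 gave 0.53, 1.30, 2.15 and 1.79. Passaged cells gave 1.14, 1.06, 0.14 and 0.02, the last from 1 count. NR2F1 was therefore nearly lost from passaged cells by day 7, with 9 counts against 44 (NP-ctrl) and 150 (NP-IWP2). On day 10 the ratio to NP-ctrl was 0.00725 with an interval of 1.82e-04 to 0.0412, and that to NP-IWP2 0.00853 with an interval of 2.14e-04 to 0.0484. NR2F1 and NR2F2, close relatives, did not move together at the end: passaged cells kept 411 counts of NR2F2 beside the single count of NR2F1. The ratio of NR2F1 to NR2F2 on day 10 was 0.179 (0.147 to 0.216) for NP-ctrl, 0.418 (0.339 to 0.512) for NP-IWP2 and 0.00365 (9.23e-05 to 0.0205) for passaged cells. Epicardial WT1 and hepatic AFP were also low in passaged cells on day 10, at 0.01 and 0.23 against 10.02 and 2365.69 in NP-ctrl. All 8 epicardial markers summed to 40.2 there against 179, with 3 and 8 of them above 3 counts. They did not all move the same way. LRRN4 of this list was above NP-ctrl in passaged cells on 3 of 4 days (0.92 ± 0.33, edgeR adjusted p 0.168). Its highest value was 82.11, in passaged cells on day 7. The part of these markers in the NR2F1 level was not tested.

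HEY1, the third factor read as atrial, peaked early in passaged cells and late in the other arms. The FPKM in NP-ctrl was 6.28, 1.48, 1.62 and 8.15 on days 3, 5, 7 and 10, and NP-IWP2 had 3.25, 2.71, 3.01 and 10.76. Passaged cells had 7.39, 20.08, 7.11 and 2.44. The day 5 value in passaged cells, from 1682 counts, was the highest of all 15 libraries, and on day 10 passaged cells were the lowest of the 3 arms. On day 5 the ratio to NP-ctrl was 13.6 (11.3 to 16.4) and that to NP-IWP2 7.42 (6.42 to 8.61). On day 10 the ratios were 0.300 (0.255 to 0.352) and 0.227 (0.194 to 0.265). HEY1 is also used by endothelium, whose 10 markers summed to 25 in passaged cells on day 5, against 128 (NP-ctrl) and 110 (NP-IWP2). KDR, a receptor that early mesoderm also makes, gave 11.89, 113.06 and 98.66 of these sums, and PECAM1 was at most 0.04 in all 3 libraries. Of the 10 markers, 8 were above 3 counts in passaged cells, 6 in NP-ctrl and 7 in NP-IWP2. The part of endothelial cells in the HEY1 level was not tested.

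HEY2, read as ventricular, was the most abundant HEY gene per length on days 0, 1 and 2. It was 7.68 on day 1 and 14.21 on day 2. NP-ctrl had 19.27, 4.72, 2.33 and 7.15 on days 3, 5, 7 and 10, NP-IWP2 had 19.81, 5.10, 3.08 and 9.02, and passaged cells had 6.60, 6.82, 4.66 and 6.23. NP-ctrl and NP-IWP2 shared a day 3 peak that was absent from passaged cells, which stayed between 4.66 and 6.82 from day 3 on. On day 3 passaged cells were at 0.343 of NP-ctrl (0.296 to 0.396) and at 0.333 of NP-IWP2 (0.287 to 0.386). That passaged library also had the lowest mitochondrial share, 1.53%, and a primitive streak marker sum of 19.6 against 158 and 232, and their part in the difference was not tested. By day 10 passaged cells and NP-ctrl differed by less than counting error, with a ratio of 0.871 (0.73 to 1.04). HEYL, a family member found in smooth muscle, was low throughout, from 0.19 in NP-ctrl on day 5 to 2.03 in NP-IWP2 on day 10. On day 10 HEYL was 1.99 in NP-ctrl and 0.34 in passaged cells, a ratio of 0.170 (0.101 to 0.274). Ordered by level, 13 of 14 neighbouring libraries of HEYL could not be separated within counting error, against 9 of 14 for HEY2 and 8 of 14 for HEY1.

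IRX4, the other gene read as ventricular, was at 19.12 on day 0, a level that only passaged cells on day 10 exceeded. After 10.94 and 9.85 on days 1 and 2 it was 9.70, 3.00, 2.61 and 7.92 in NP-ctrl on days 3, 5, 7 and 10. NP-IWP2 gave 8.82, 3.76, 10.40 and 14.12, and passaged cells 8.43, 2.2, 4.35 and 22.54. The lowest value came on day 5 in NP-IWP2 and passaged cells and on day 7 in NP-ctrl. The later values were higher first in NP-IWP2, on day 7, and highest in passaged cells on day 10. On day 7 NP-IWP2 stood above NP-ctrl by a ratio of 3.98 (3.21 to 4.97), and passaged cells at 0.418 (0.353 to 0.495) of NP-IWP2. On day 10 passaged cells stood above NP-ctrl by a ratio of 2.85 (2.51 to 3.24) and above NP-IWP2 by 1.60 (1.45 to 1.76). The cardiomyocyte markers ranked the arms the same way on day 10, and on day 7 their sum was 3547 in the passaged arm against 2466 in NP-IWP2. Their part in the IRX4 level was not tested. The antisense transcript IRX4-AS1 was 4.17 in passaged cells on day 10, from 27 counts, its highest, against 1.75 (NP-ctrl) and 2.82 (NP-IWP2). Since the use of strand in counting was not stated, reads of the 2 genes may be mixed.

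IRX3 and IRX1 were early genes in every arm. IRX3 was 68.72, 16.29, 7.51 and 6.68 in NP-ctrl on days 3, 5, 7 and 10. NP-IWP2 had 75.79, 15.08, 14.12 and 11.08, and passaged cells had 85.69, 42.62, 15.43 and 14.89 and were the highest arm on all 4 days. On day 7, though, passaged and NP-IWP2 cells differed by less than counting error, with a ratio of 1.09 (0.981 to 1.22). The largest ratios were those of day 5, at 2.62 (2.40 to 2.85) over NP-ctrl and 2.83 (2.58 to 3.10) over NP-IWP2. For IRX1, NP-ctrl had 69.48, 13.32, 3.45 and 0.93, NP-IWP2 had 68.83, 9.45, 3.30 and 0.61, and passaged cells had 60.97, 18.58, 4.52 and 1.83. IRX1 thus passed through a common peak on day 3 and was nearly gone from all arms by day 10, the day on which IRX4 of the same cluster was highest in NP-IWP2 and passaged cells. A gene without a symbol on the strand opposite IRX3 reached 337 counts in its highest library. Over the 12 libraries of days 3 to 10 the levels of IRX3 and IRX1 had a Pearson r of 0.93 on log2(FPKM + 1), which describes libraries that share days and arms. For IRX4 and IRX1 it was -0.19.

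On each day the 8 genes were set against all genes in the same comparison of libraries. Between passaged cells and NP-ctrl, 1 of 8 passed the limit on day 3 (HEY2, lower), against 8.49% of all genes. On day 5 NR2F2, HEY1 and IRX3 passed it, all higher (8.16% of all genes in either direction), and on day 7 HEY1 alone, higher (12.6%). On day 10 it was 6 of 8: IRX4 and IRX3 higher and NR2F1, NR2F2, HEY1 and HEYL lower, against 17.4% of all genes, 5.67% higher and 11.7% lower. All 3 factors read as atrial were therefore lower in passaged cells on day 10, and of those read as ventricular IRX4 was higher and HEY2 was not different at this limit. The median difference of the 8 genes on that day was -0.66, beside -0.09 over all genes.

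NP-IWP2 and NP-ctrl, which differ by the inhibitor, were compared in the same way. None of 8 passed the limit on day 3 (4.15% of all genes) or day 5 (2.97%). IRX4 passed it on day 7 (7.26%), higher, and NR2F2 on day 10 (9.35%), lower. With 0 or 1 of 8 on each day, these counts were near the shares of all genes. Between passaged and NP-IWP2 cells, HEY2 was lower on day 3 (8.7%) and NR2F2, HEY1 and IRX3 were higher on day 5 (7.51%). On day 7 HEY1 was higher and NR2F1 and IRX4 were lower (6.69%). On day 10 NR2F1, HEY1 and HEYL were lower (10.1%). The comparisons of an arm share libraries, so their values are not independent of each other.

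**Figure D2:**
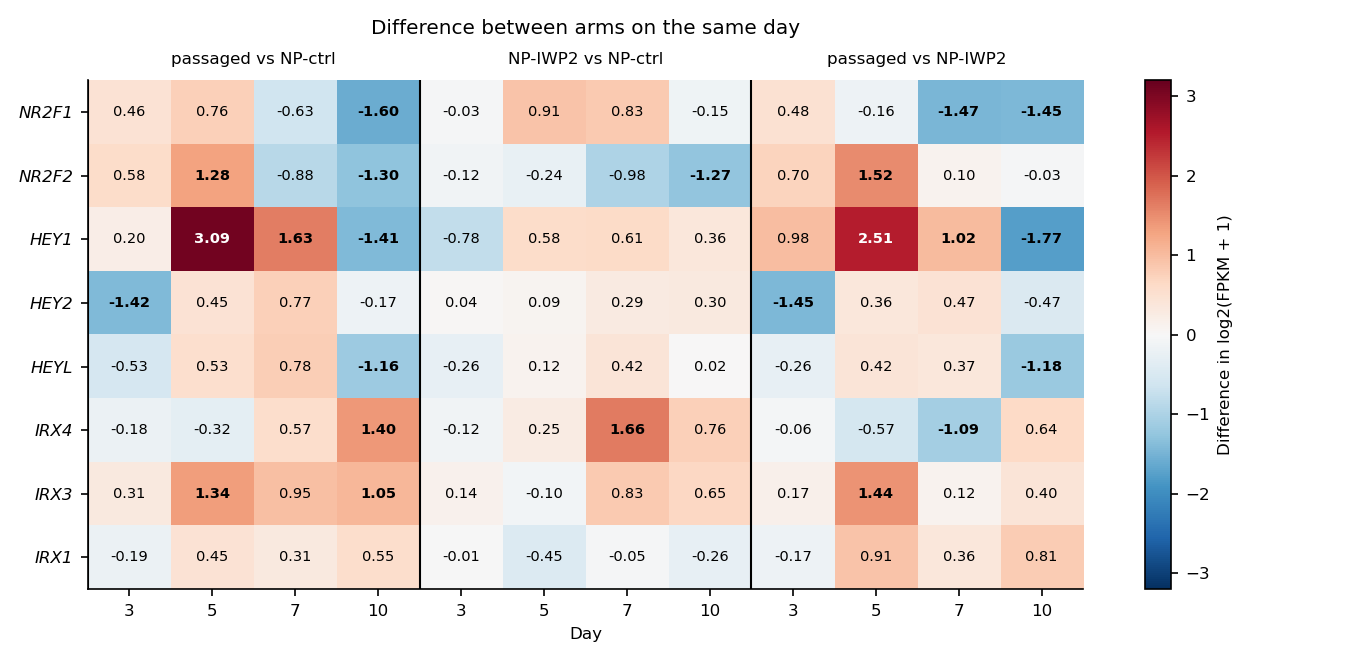
Differences in log2(FPKM + 1) of the 8 genes (rows) between 2 arms on the same day (columns), for passaged against NP-ctrl, NP-IWP2 against NP-ctrl and passaged against NP-IWP2. Red is higher and blue lower in the arm named first, and values of at least 1 in size are bold. HEY1 turns from 3.09 on day 5 to -1.41 on day 10 between passaged cells and NP-ctrl, and the middle block holds 2 bold values.

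Over days 3 to 10 together, with day as a block, the edgeR quasi-likelihood test called 1 of the 8 genes. IRX3 was higher in the passaged arm than in NP-ctrl by 1.03 ± 0.24 (SE) on the log2 scale, on 4 of 4 days, with an adjusted p of 0.0392, where 3.78% of all genes were called. The call did not hold without day 5 (adjusted p 0.135), day 7 (0.221) or day 10 (0.196), nor with limma (0.0823) or with the third arm left out (0.151), and its size ranged from 0.88 to 1.30. In NP-IWP2 against NP-ctrl (0.0141% of all genes called) none of the 8 was called by edgeR, where 965 of all genes had an unadjusted p under 0.05, nor by limma or DESeq2. The lowest unadjusted p was that of NR2F2, lower on 4 of 4 days, at -1.02 ± 0.49 with an adjusted p of 0.969 (edgeR) and an unadjusted p of 0.0679, which became -0.97 with an adjusted p of 0.049 when the passaged arm was left out of the fit. In passaged against NP-IWP2 (1.1% of all genes called) none of the 8 was called by edgeR. The lowest edgeR adjusted p-values there were 0.25 for IRX1, 0.289 for IRX3 and 0.336 for NR2F2. NR2F2 and HEY1 differed in opposite directions on different days. HEY1 was above NP-ctrl in passaged cells on 3 of 4 days, and its effect of 1.40 had an SE of 0.85 (edgeR adjusted p 0.442). NR2F1 had an effect of -0.44 with an SE of 1.19 (edgeR adjusted p 0.898).

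Ratios inside a library do not depend on how libraries are scaled against each other, though they do depend on the gene lengths used for FPKM. HEY2 exceeded HEY1 by 26.8-fold on day 2 (95% interval 20.5 to 35.5). In passaged cells the ratio was 0.893 (0.765 to 1.04) on day 3, 0.340 (0.298 to 0.386) on day 5 and 0.656 (0.553 to 0.774) on day 7, and it came back to 2.55 (2.11 to 3.08) on day 10. NP-ctrl and NP-IWP2 had 3.07 and 6.09 on day 3 and 0.878 (0.756 to 1.02) and 0.838 (0.742 to 0.945) on day 10. Of the 3 arms, passaged cells were thus the 1 with more HEY2 than HEY1 on day 10. For IRX4 to NR2F2 the day 5 ratio was 1.07 (0.867 to 1.31) for NP-ctrl, 1.69 (1.37 to 2.10) for NP-IWP2 and 0.267 (0.215 to 0.329) for passaged cells. On day 10 it was 0.675 (0.594 to 0.767), 3.31 (2.93 to 3.74) and 5.4 (4.81 to 6.07). Passaged cells held the lowest ratio on day 5 and the highest on day 10, and NP-ctrl was the 1 arm in which NR2F2 exceeded IRX4 on day 10.

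**Figure D3:**
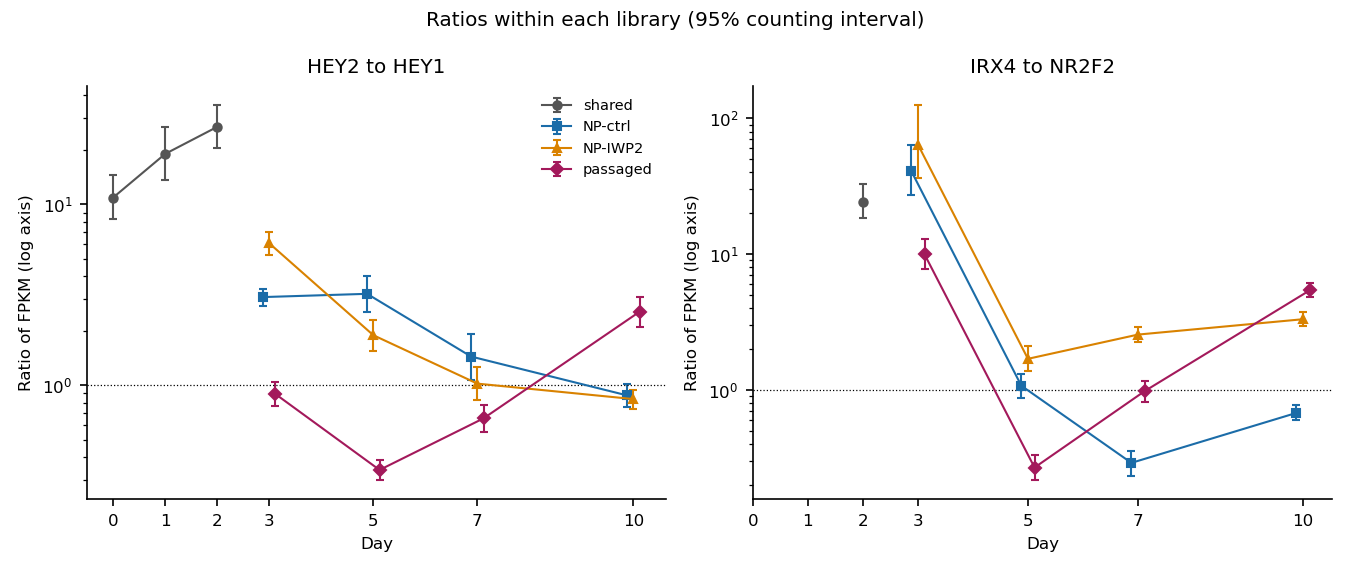
Ratio of FPKM within each library on a log axis (vertical) against day (horizontal), for HEY2 to HEY1 and IRX4 to NR2F2, with 95% counting intervals and a dotted line at 1. Ratios with 3 or fewer counts on a side are not drawn. The passaged arm (magenta) is the lowest of the 3 arms on day 5, at 0.340 and 0.267, and the highest on day 10, at 2.55 and 5.4.

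Upstream of the HEY genes, the Notch ligands and receptors were taken from a list of names. Of 4 ligands past the filter none was called between passaged cells and NP-ctrl, and DLL3 was called lower in passaged than in NP-IWP2 cells (effect -1.91 ± 0.28, adjusted p 0.0125 by edgeR), a call lost with limma and without day 5, 7 or 10. DLL3 and DLL1, ligands of the forming somites, reached 612.38 and 154.87 on day 2 and were at most 13.23 and 8.25 from day 5. JAG1, a ligand used in vessel wall and heart, had 14.78, 4.82, 16.50 and 22.76 in NP-ctrl on days 3, 5, 7 and 10. NP-IWP2 had 15.97, 15.56, 42.01 and 36.96, and passaged cells had 54.86, 67.65, 45.24 and 11.78. JAG1 and HEY1 were both highest of all libraries in passaged cells on day 5, and both were lowest of the 3 arms there on day 10. Other libraries differed: in NP-IWP2 on day 7 JAG1 was 42.01 while HEY1 was 3.01. A link between JAG1 and HEY1 was not tested. The JAG1 effect over days was 1.79 ± 0.67 against NP-ctrl, with an adjusted p of 0.191 by edgeR.

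None of 3 receptors past the filter and none of 11 modulators and nuclear partners was called in any of the 3 contrasts by edgeR. RBPJ ranged from 8.47 to 22.64. NOTCH2 and NOTCH3 were the leading receptors from day 5, at 11.71 and 21.61 in passaged cells on day 5. Of 5 other targets past the filter none was called. HES4 was 23.90 and 51.19 in passaged cells on days 5 and 7 against 6.51 and 11.27 in NP-ctrl. NRARP, which dampens Notch, was 10.84 in passaged cells on day 7 against 3.26 in NP-ctrl. On day 10 HES4 and NRARP were 14.40 and 3.63 in passaged cells and 17.41 and 2.33 in NP-ctrl. Over days, the effects against NP-ctrl were 0.73 ± 0.49 for HES4, 0.80 ± 0.27 for NRARP and 0.88 ± 0.33 for HES6. HES1 and HES7 had effects of 0.07 ± 0.19 and -0.01 ± 0.68.

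Retinoic acid genes were described beside the NR2F pair. Of 14 past the filter, RARB was called higher and ALDH1A1 lower in the passaged arm against NP-ctrl (3.78% of all genes called). ALDH1A1 was also called lower against NP-IWP2 (1.1% of all genes called). RARB, a receptor that retinoic acid itself induces, was 8.78, 25.26, 6.13 and 5.08 in passaged cells on days 3, 5, 7 and 10. NP-ctrl had 4.03, 4.37, 0.78 and 0.54. RARB was thus higher on 4 of 4 days (2.39 ± 0.41, adjusted p 0.0141 by edgeR), and the call was lost without day 5 or 7 and with the third arm left out. ALDH1A2, the retinoic acid synthase of the embryonic heart, named after its values were seen, was 9.28 in passaged cells on day 5 against 0.53 (NP-ctrl) and 0.86 (NP-IWP2), with an effect over days of 2.14 ± 0.57 (edgeR adjusted p 0.0737). ALDH1A1, a related enzyme also made by liver, reached 16.95 in NP-ctrl on day 10 against 0.44 in passaged cells (adjusted p 0.0021 by edgeR). That call was lost with limma and with the third arm left out, and the call against NP-IWP2 with limma and without day 7 or 10. CRABP2, the binding protein for retinoic acid, was 114.46 in passaged cells on day 5 against 40.34 in NP-ctrl. NR2F2, RARB and ALDH1A2 all stood highest in passaged cells on day 5 among the 3 libraries of that day. Not all listed genes did, and CYP26A1 had 0 counts in passaged cells on day 5. RARG was higher than in NP-ctrl on 0 of 4 days (-0.64 ± 0.17, edgeR adjusted p 0.0706). A link between these genes and NR2F2 was not tested.

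Chamber effector genes did not all follow the factors. Of 13 atrial effectors 1 was called between passaged cells and NP-ctrl, where 3.78% of all genes were called. It was KCNJ3, which encodes a subunit of the acetylcholine-gated potassium channel of atrial muscle. KCNJ3 was 0.15, 10.21, 17.54 and 13.14 in NP-ctrl on days 3, 5, 7 and 10, and 0.18, 4.31, 9.08 and 4.88 in NP-IWP2. Passaged cells had 6 counts on day 5 and 0 on the other 3 days. It was lower in passaged cells on 4 of 4 days in both contrasts (adjusted p 4.94e-04 against NP-ctrl and 0.00191 against NP-IWP2 by edgeR), and limma alone lost these calls. TBX5, which patterns the inflow side, was called lower in passaged than in NP-IWP2 cells (-2.33 ± 0.41, edgeR adjusted p 0.0367), at 5.43 against 34.86 on day 10, but the call was lost in 6 of 10 alternatives, among them without day 5, 7 or 10. SLN, the atrial regulator of calcium uptake, was 284.46 and 154.47 in NP-ctrl on days 7 and 10 and 1.55 and 0.22 in passaged cells, and was not called (edgeR adjusted p 0.139). The atrial light chains MYL7 and MYL4, which all early heart muscle makes, were highest of all libraries in passaged cells on day 10, at 1867.86 and 459.62, and NPPA was 4.64 there against 0.40 in NP-ctrl.

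Of 12 ventricular effectors, MYH7 and HSPB7 were called higher in the passaged arm against NP-ctrl (3.78% of all genes called). MYH7 was also called higher against NP-IWP2 (1.1% of all genes called). MYH7, the slow myosin of ventricles, was 240.65 and 208.89 in passaged cells on days 7 and 10, against 1.20 and 4.26 (NP-ctrl) and 5.77 and 17.26 (NP-IWP2; adjusted p 0.00324 and 0.0192 by edgeR). Reads of MYH7 and its near copy MYH6 may be exchanged by the counting. HSPB7, a small heat shock protein of muscle, was 222.06 in passaged cells and 37.71 in NP-ctrl on day 10 (edgeR adjusted p 0.0315). The calls of MYH7 against NP-IWP2 and of HSPB7 were lost with limma, with no filter and without day 5, 7 or 10. That of HSPB7 was also lost with the third arm left out. The call of MYH7 against NP-ctrl was lost with limma, with the third arm left out and without day 7. MYL2, the light chain of mature ventricle, had 0 counts in NP-ctrl throughout and reached 1.48 in passaged cells on day 10. MYL3 and LBH were 356.10 and 259.84 there, and GJA1, the gap junction protein of working muscle that many other cells share, was 5.21 against 93.06 in NP-ctrl. Of 11 other chamber regulators MEF2C, which drives muscle genes, was called higher (40.88 on day 10 against 3.89 in NP-ctrl, edgeR adjusted p 0.0029). Also called was HAND1, a factor of left ventricle and extraembryonic mesoderm, lower (98.43 on day 7 against 748.06, edgeR adjusted p 0.00422). Both calls were against NP-ctrl, where 3.78% of all genes were called. They were lost without day 7 and with the third arm left out, and that of MEF2C also with limma. HAND1 was also called lower against NP-IWP2 (1.1% of all genes called), a call lost in 6 of 10 alternatives. Cardiomyocyte, fibroblast and hepatic marker sums divided the arms on these days too, and their part was not tested.

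**Figure D4:**
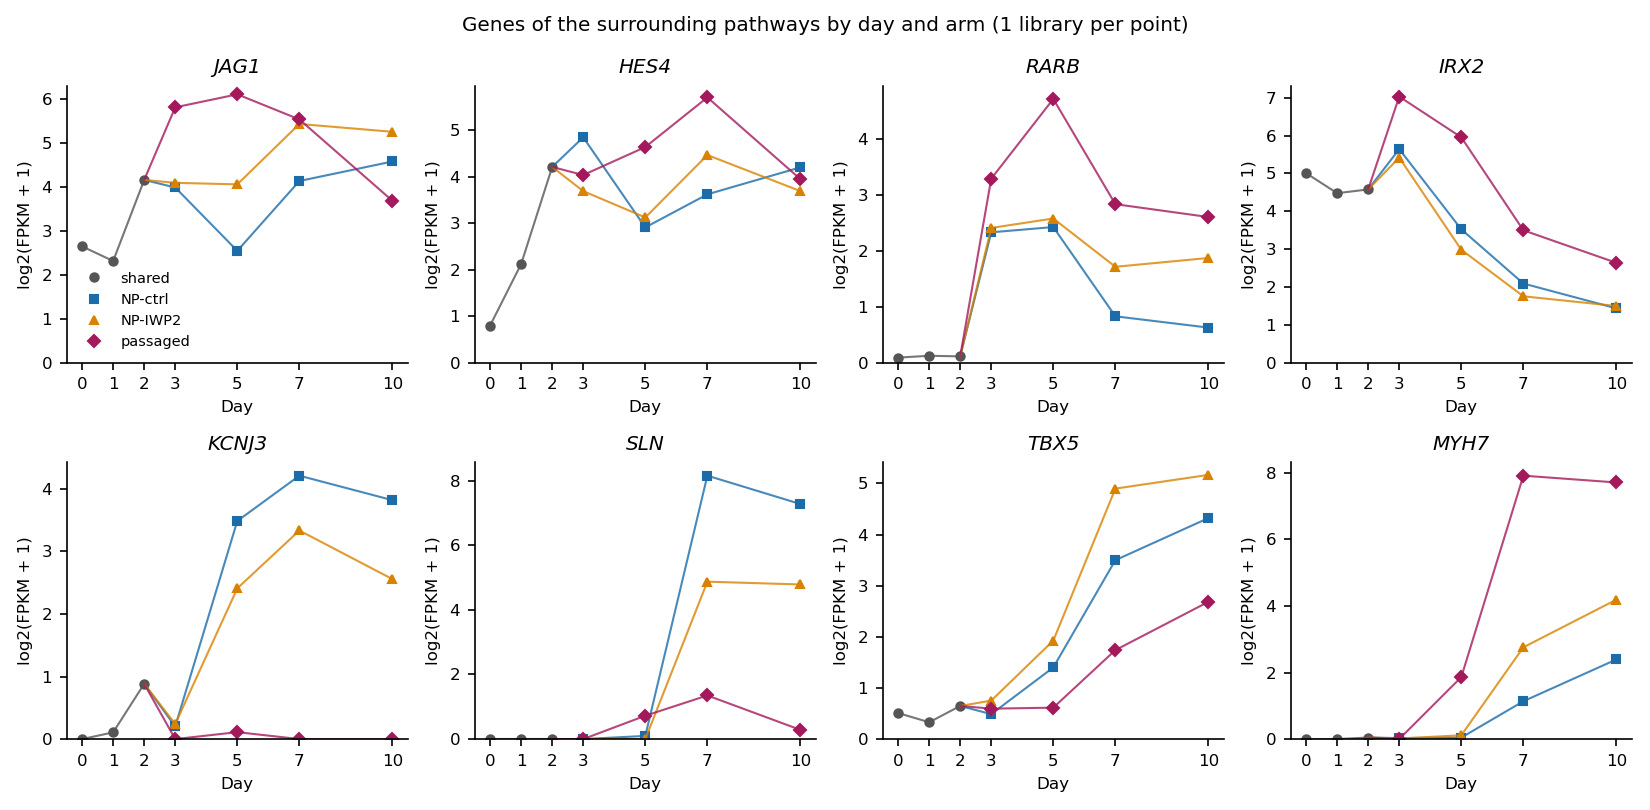
log2(FPKM + 1) (vertical, from 0) against day (horizontal) for the Notch ligand JAG1, the Notch target HES4, the retinoic acid receptor RARB, IRX2, the atrial genes KCNJ3 and SLN, the inflow-side factor TBX5 and the ventricular myosin MYH7, 1 library per point and colours by arm. The passaged arm (magenta) lies above both others on each of days 3, 5, 7 and 10 for RARB and IRX2 and stays near 0 for KCNJ3.

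Among the other Iroquois genes IRX2 was called higher in passaged cells in both contrasts. Its FPKM was 129.81, 61.12, 10.26 and 5.22 in passaged cells on days 3, 5, 7 and 10. NP-ctrl had 48.98, 10.46, 3.26 and 1.70, and NP-IWP2 had 41.83, 6.91, 2.37 and 1.82. It was higher in passaged cells on 4 of 4 days by 1.88 ± 0.23 against NP-ctrl (adjusted p 0.00215) and by 2.2 ± 0.24 against NP-IWP2 (adjusted p 0.0024 by edgeR). The first call held in 10 of 10 alternatives and the second was lost without day 7 alone (adjusted p 0.067). As ratios, IRX2, IRX3 and IRX5 each had their largest excess of passaged cells over NP-ctrl on day 5, at 5.84, 2.62 and 6.86. IRX5 was 9.40 in passaged cells on that day, against 1.37 and 2.11, and was lower there than in NP-ctrl by day 10, at 1.53 against 2.46. IRX6 was at most 0.98 in any library. IRX3 exceeded IRX5 by 4.53-fold (4.07 to 5.06) in passaged cells on day 5 and by 9.76-fold (7.57 to 12.8) on day 10, so the neighbours did not keep a fixed ratio. CRNDE, a noncoding gene beside IRX5, was 9.04 in passaged cells on day 5 against 2.95 in NP-ctrl.

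Other genes were ranked by how closely their levels followed each factor over the 15 libraries, among 10165 named protein-coding genes whose highest FPKM reached 5. The correlations describe libraries that share days, arms and cell mixtures. NR2F2 was followed most closely by SUCO (Pearson r 0.970), LAYN (0.967) and NKX2-3 (0.964). HEY1 was followed by MEX3B (0.879), SOX9 (0.873) and B3GNT2 (0.832), and IRX4 by ACAA2 (0.891), CPT1A (0.845) and ACAT1 (0.831), all 3 enzymes of mitochondrial fat or ketone metabolism. For IRX3 the list gave HAS2 (0.957), IRX5 (0.920) and EPHB3 (0.915), and for IRX1 BABAM1 (0.959), TBX1 (0.956) and FOXL2 (0.949). HEY2 gave RENBP (0.896), MTFR1 (0.880) and SUCLG2 (0.877). NR2F1 gave TFPI (0.854), TGFBR1 (0.848) and SFRP5 (0.840), and HEYL gave BTG3 (0.849), PANK3 (0.784) and RAB1A (0.773). For IRX3 and IRX1 none of the 3 genes stayed within the first 10 when days 0 to 2 were left out.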

How the data were processed

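Per the labels and the methods of the study, the authors trimmed reads with cutadapt 1.9.1, aligned them to hg38 with HISAT2 2.0.1, counted reads per gene with HTSeq 0.6.1 and compared groups with DESeq2. The authors deposited counts of 60605 genes and FPKM values. FPKM recomputed here from the counts, exon lengths and library totals differed from the deposited FPKM by at most 0.005. The annotation release and the use of strand are not given in the sources used here. The methods name a long-read kit beside these short-read tools, so values per gene length carry that doubt.

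Each label matched 1 column of counts and 1 of FPKM. The 8 genes and all gene lists were chosen with earlier results of these data known. The 21206 genes whose highest FPKM reached 1 were kept. Single libraries were compared on log2(FPKM + 1), with a pseudocount of 1, and ratios carry exact (Clopper-Pearson) 95% intervals on counts, with a floor of 3 counts. Arms were compared over 12 libraries with day as a block by edgeR 4.0.16 (robust quasi-likelihood, TMM, Benjamini-Hochberg over all genes kept, adjusted p under 0.05), with limma 3.58.1 and DESeq2 1.42.0 (R 4.3.3) as alternatives. Tested on simulated counts of 21206 genes for passaged against NP-ctrl, edgeR found 170 of 200 genes simulated with a log2 change of 2 and made 10 false calls. DESeq2 found 185 and made 44 false calls, and with no change simulated it made 25 and edgeR 2. The changed genes were drawn above a count minimum and shifted alike on every day. The simulation therefore does not cover genes of few counts or genes that turn over between days. Nor does it cover smaller effects, such as the 1.03 of IRX3 or the 1.40 of HEY1 against NP-ctrl. Total counts of 13254723 to 20250115 per library set the precision. Of each list, genes called, the 3 of highest FPKM and a few of known role (IRX2, IRX5, IRX6, MYL2, MYH7, NPPA) are named, and of genes with a like pattern the first 3. Motifs were searched on both strands of RefSeq promoters.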

Additional observations from a re-analysis of the deposited data

Results flagged for a closer look

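Replicate outliers could not be sought, since each arm and day has 1 library. The differences between arms that turned over between days stood out, and whether the days differ was not tested, as each rests on 1 library per arm and day. The passaged minus NP-ctrl difference of HEY1 on log2(FPKM + 1) measured 3.09 on day 5, then 1.63 on day 7 and -1.41 on day 10. Against NP-IWP2 the HEY1 differences were 2.51, 1.02 and -1.77 on the same days. NR2F2 differed between passaged cells and NP-ctrl by 1.28 on day 5 and by -1.30 on day 10. These directions were the same at a pseudocount of 0.1, with TPM, with median-of-ratios scaling and over the counts outside the mitochondrial genome.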

How the results depend on the processing

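The direction of all 25 single-day differences past the limit was the same at a pseudocount of 0.1, with TPM, with median-of-ratios scaling and over the counts outside the mitochondrial genome, the last chosen after seeing the data. The number of the 8 genes past the limit moved more. At a pseudocount of 0.1 it became 3, 5 and 5 on days 3, 5 and 7 for passaged cells against NP-ctrl, 1 and 3 on days 5 and 7 for NP-IWP2 against NP-ctrl, 3, 4 and 4 on days 3, 5 and 10 for passaged against NP-IWP2 cells and 4 for day 2 against day 1. With TPM it became 2, 5, 4 and 5 on days 3, 5, 7 and 10 for passaged cells against NP-ctrl, 1 and 3 on days 5 and 7 for NP-IWP2 against NP-ctrl, 3 and 4 on days 3 and 10 for passaged against NP-IWP2 cells and 3 for day 2 against day 1. Median-of-ratios scaling gave 2 on day 7 for passaged cells against NP-ctrl, adding IRX3. At a limit of 2 it was 1 (HEY1) on day 5 for passaged cells against each other arm, 1 (IRX3) for day 2 against day 1, and 0 in every other comparison that had any. TPM moved the all-gene median of the passaged minus NP-ctrl difference to 0.28 on day 3, -0.22 on day 7 and -0.38 on day 10, and that against NP-IWP2 to -0.28 on day 10. With TPM IRX3 no longer passed the limit on day 10 against NP-ctrl. The share of higher calls among all genes moved from 59.1% to 75% with TPM and to 48.6% with median-of-ratios scaling on day 3, and from 32.6% to 21.1% and 42.3% on day 10, between passaged cells and NP-ctrl, and from 30.4% to 41.8% with median-of-ratios scaling against NP-IWP2 on day 10.

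Over days 3 to 10, the number of the 8 genes called between passaged cells and NP-ctrl was 1, and 0 with limma and with only the 2 arms compared, and leaving out 1 day gave 0 to 1. Between NP-IWP2 and NP-ctrl it was 1 with only the 2 arms compared. The number of all genes called in the 3 contrasts was 802, 3 and 233 with edgeR, 2150, 59 and 886 with DESeq2, and 199, 0 and 24 with limma. With no filter it was 1395, 37 and 562, and with only the 2 arms compared 57, 201 and 139. The count filter left 0 in NP-IWP2 against NP-ctrl. Leaving out 1 day gave 78 to 2237, 0 to 22 and 10 to 543. The causes were not tested. The arms were matched by day in each of these fits, and the labels give no replicate numbers to pair by. With 1 library per arm and day, depth limits NR2F1 and HEYL most.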
